A study of Mus musculus with 16 samples.

Results

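The 10 CXC and CX3C chemokine ligands described here are Cxcl1, Cxcl2, Cxcl3, Cxcl5, Cxcl9, Cxcl10, Cxcl12, Cxcl15, Cxcl16 and Cx3cl1, chosen by gene symbol from the 54532 genes of the deposited tables. All 10 were found. Bulk RNA-seq was performed on pulmonary ECs that had been taken from digested mouse lung with magnetic beads, first by removing cells that carry CD45 and then by selecting cells that carry CD31. In the first experiment, male WT C57/BL6J mice of 8 weeks received saline (n = 4) or 10 mg/kg LPS, the lipopolysaccharide of bacterial outer membranes, by the intratracheal route (n = 6). In the second, 2 mg/kg LPS was given to Fgfr1 loxP/loxP mice (n = 3) as well as to Fgfr1 iΔEC/iΔEC mice (n = 3), so that this experiment has no saline group. The iΔEC/iΔEC mice carry the same floxed alleles with a tamoxifen-inducible CreERT2 driven by the VE-cadherin promoter, and the loxP/loxP mice were littermates. Mice of both genotypes were given tamoxifen by the intraperitoneal route before LPS, per the study. RNA was harvested after 24 h in every group. Reads on genes numbered 13478726 to 19043015 per library. The sources do not say whether each library came from a separate mouse, so the p-values measure the spread between these libraries, which may be partly technical.

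Chemokines are small secreted proteins that bind G protein-coupled receptors on leukocytes and direct them along a gradient, which they form in part by sticking to the heparan sulfate of the endothelial surface. In the CXC family a single residue separates the first pair of cysteines, and members with the residues Glu-Leu-Arg before them (ELR) act on CXCR2 and attract neutrophils, the leukocytes that fill the airspaces after LPS. Cxcl9 and Cxcl10 act on CXCR3 of activated T and NK cells and are induced by interferons. Cxcl12 holds CXCR4-bearing cells in their tissues in the resting state, and Cxcl16 and Cx3cl1 are unusual in being made as transmembrane proteins on a mucin stalk, from which the metalloproteases ADAM10 and ADAM17 can release them.

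In the libraries of mice given 10 mg/kg LPS, 7 of the 10 ligands were higher than in saline, 2 were lower and 1 passed no threshold. The genes that rose were the ELR ligands Cxcl1, Cxcl2, Cxcl3 and Cxcl5, the interferon-inducible Cxcl9 and Cxcl10, and the transmembrane ligand Cxcl16. The genes that fell were the homeostatic ligand Cxcl12 and the transmembrane ligand Cx3cl1, and neither was called when the libraries were scaled to their endothelial markers. Leukocyte, macrophage and neutrophil markers were higher in the same LPS libraries, with mean summed FPKM of 1118, 3131 and 3007 against 137, 671 and 460 in saline, and their part in the ligand values was not tested. Calls needed a Benjamini-Hochberg adjusted p of at most 0.05 together with a log2 fold change of at least 1 in either direction, from limma on log2(FPKM + 1) over 14893 genes. FPKM is the fragment count of a gene after division by its length and by the library's size. Among all genes tested, 11.9% were called higher and 6.79% lower. Of the 7 ligands that rose, Cxcl1, Cxcl5 and Cxcl9 were high enough to be tested only through their LPS values. The median log2 fold change was 2.14 over the 10 ligands and 0.01 over all genes. Between the genotypes given 2 mg/kg LPS, 0 of the 10 ligands and 0 of all 14944 genes tested were called.

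Cxcl5, Cxcl3, Cxcl15, Cxcl1 and Cxcl2 lie in this order on the forward strand of chromosome 5 of GRCm38, from base 90759360 to base 90905938, and Cxcl9 and Cxcl10 lie on the reverse strand of the same chromosome between 92321347 and 92348889. The promoters of the 3 genes with the largest changes in the first run (Cxcl1, Cxcl2 and Cxcl3) and of Cxcl10 are shown because they hold an NF-kB-type pattern, which no other ligand promoter examined held. Sequences are those of RefSeq on GRCm38.p6, from a promoter table in which 8 of the 10 ligands were matched, and each stretch is the coding strand read 5′ to 3′ and ends just before the gene start given in the deposited tables or in RefSeq, whichever lies further upstream. Capitals mark matches on either strand to an NF-kB-type pattern (GGG, any 3 bases, TTCC), a pattern of the interferon-stimulated response element type (GAAA, any 2 bases, GAAA) or the TATA box letters TATAAA.
Cxcl1, chr5:90891141-90891240, forward strand: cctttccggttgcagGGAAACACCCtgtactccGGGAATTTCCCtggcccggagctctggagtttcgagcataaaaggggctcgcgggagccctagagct
Cxcl2, chr5:90903771-90903870, forward strand: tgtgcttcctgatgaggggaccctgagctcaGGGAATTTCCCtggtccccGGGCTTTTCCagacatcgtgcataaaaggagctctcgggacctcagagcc
Cxcl3, chr5:90786001-90786100, forward strand: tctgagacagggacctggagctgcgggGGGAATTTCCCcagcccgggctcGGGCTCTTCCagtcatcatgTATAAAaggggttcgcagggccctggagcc
Cxcl10, chr5:92348890-92349109, reverse strand: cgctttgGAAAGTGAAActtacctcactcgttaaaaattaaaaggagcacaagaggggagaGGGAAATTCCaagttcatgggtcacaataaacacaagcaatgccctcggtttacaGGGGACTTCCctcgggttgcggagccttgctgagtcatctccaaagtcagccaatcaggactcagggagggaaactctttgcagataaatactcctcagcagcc

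The NF-kB-type pattern matched at 3 positions in each of the Cxcl1, Cxcl2 and Cxcl3 promoters, counted over 250 bases before to 50 after the start, and at 2 positions in that of Cxcl10. Cxcl1, Cxcl2 and Cxcl3 share the run GGGAATTTCCC, whose letters read nearly the same on both strands and give 2 overlapping matches of the 3 in each gene. Its first base lies 71, 97 and 73 bases upstream of the RefSeq start of Cxcl1, Cxcl2 and Cxcl3. Of the 32851 RefSeq promoters of this length, 5.56% hold the NF-kB-type pattern, and 14 (0.0426%) hold GGGAATTTCCC, a run picked out after the matches had been seen. The interferon-type pattern is held by 3.44% of all promoters and, among the ligands, matched only in Cxcl10, 213 bases upstream. TATAAA is held by 13.6% and matched in Cxcl3, Cxcl9, Cxcl15 and Cx3cl1. Its first base lies 30, 195, 27 and 6 bases upstream of the RefSeq start in these genes, in that order. A match of letters does not show a working TATA box. None of the 3 patterns matched in Cxcl12, and the NF-kB-type pattern did not match in Cxcl9, Cxcl15 or Cx3cl1 either. The promoters of Cxcl5 and Cxcl16 were not analysed here.

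Cxcl2, which encodes macrophage inflammatory protein 2, was the most abundant ligand after LPS. It was read at 131, 0.743, 5.58 and 0.590 FPKM in saline 1 to 4. In the 6 LPS libraries it ranged from 235 to 1070 FPKM with a median of 456. The groups did not overlap, although saline 1 alone held 3571 of the 3835 reads that the saline group had on this gene. The log2 fold change was 6.08 ± 1.07 (SE, adjusted p = 0.000768), which ranked 7 among the 14893 genes tested on this scale. Without saline 1 it was 7.49, without saline 2 it was 5.41 and without saline 4 it was 5.36.

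Cxcl3, a close relative of Cxcl2 with the same receptor, was read at 2.27, 0.0258, 0 and 0.0436 FPKM in saline 1 to 4. After LPS it ranged from 16.8 to 81.8 FPKM with a median of 38.5. Saline 1 was again the highest of its group and lay below every LPS library, and the log2 fold change was 4.86 ± 0.46 (SE, adjusted p = 1.32e-05). The added 1 FPKM holds down the fold changes of genes that are low in saline, and limma-voom on the read numbers gave 9.22 for Cxcl3 and 7.12 for Cxcl2, the reverse of their order on the log2(FPKM + 1) scale. Cxcl2 and Cxcl3 share an exact run of 110 bases in their transcripts, so fragments that lie wholly within that run cannot be assigned to either gene. How the authors treated such reads is not given in the sources used here. No other pair of the 10 ligands shared more than 23 bases.

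Cxcl1, known as KC in the mouse and a neutrophil attractant, was read at 1.41, 0.0964, 0 and 0.0813 FPKM in saline 1 to 4. These values rested on 35, 4, 0 and 3 reads. After LPS the gene ranged from 10.2 to 25.1 FPKM with a median of 15.2, on at least 352 reads per library. All 6 LPS libraries lay above all saline libraries, with a log2 fold change of 3.62 ± 0.29 (SE, adjusted p = 4.09e-06) and one of 7.06 by limma-voom.

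Cxcl5, an ELR ligand made by epithelium and platelets among other cells, had the lowest mean of the 10 in saline and after LPS. In both groups its libraries overlapped those of Cxcl9. The saline libraries 1 to 4 had 5, 2, 0 and 1 reads on it, which is 0.203, 0.0485, 0 and 0.0273 FPKM. With LPS it ranged from 0.904 to 3.18 FPKM, with a median of 2.67 and 31 to 106 reads per library. The groups did not overlap, and the log2 fold change was 1.55 ± 0.23 (SE, adjusted p = 0.000268). By limma-voom it was 5.32.

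Cxcl15, or lungkine, is an ELR ligand that is made by lung epithelium. It was read at 82.5, 36.7, 60.9 and 31.1 FPKM in saline 1 to 4. The LPS libraries ranged from 13.6 to 44.5 FPKM with a median of 36.1. The groups overlapped, and the log2 fold change of -0.61 ± 0.34 was not called (SE, adjusted p = 0.151). It was called under quantile normalization (-1.05, adjusted p = 0.0142) and turned to 0.17 when the libraries were scaled to their endothelial markers. On total reads it was -0.81 (adjusted p = 0.0469), short of the fold limit. Without saline 1 it was -0.37, without LPS 1 it was -0.38, and without both saline 1 and saline 3 it was -0.09. It was -0.83 without saline 4 and -0.75 without saline 2. The summed FPKM of the 10 epithelial marker genes was 2679, 1277, 2006 and 1020 in saline 1 to 4, and 232 to 847 after LPS.

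Cxcl10, named for its induction by interferon-gamma, was read at 0.973, 0.482, 0.945 and 0.338 FPKM in saline 1 to 4, on 15 to 38 reads. Under LPS it ranged from 9.49 to 28.1 FPKM with a median of 23.0. Every LPS library lay above every saline library, and the log2 fold change was 3.66 ± 0.26 (SE, adjusted p = 2.23e-06). Its exons share 133 bases with those of Art3 on the opposite strand, and the strandedness of the libraries is not given in the sources used here. Art3 had at most 199 reads in a library.

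Cxcl9, known as monokine induced by interferon-gamma, lay at 0.0251, 0.0899, 0.130 and 0.0842 FPKM in saline 1 to 4, on 1 to 7 reads. After LPS it ranged from 2.02 to 4.93 FPKM with a median of 4.18. The groups did not overlap, with a log2 fold change of 2.09 ± 0.20 (SE, adjusted p = 1.52e-05) and one of 5.39 by limma-voom. Cxcl11, the other CXCR3 ligand of this locus and a polymorphic pseudogene in the annotation used, was listed at 0 in all 4 saline libraries and had 2 to 18 reads in each LPS library. It was too low to be tested.

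Cxcl12, also called stromal cell-derived factor 1, was the most abundant of the 10 in saline 2, 3 and 4. It was read at 57.3, 96.1, 64.5 and 89.5 FPKM in saline 1 to 4. The LPS libraries ranged from 14.4 to 52.9 FPKM with a median of 27.9. All LPS libraries lay below all saline libraries, and the log2 fold change was -1.43 ± 0.32 (SE, adjusted p = 0.00317). Of the 10 endothelial marker genes, 4 were called lower after LPS as well, and when the libraries were scaled to the same mean of these markers the log2 fold change of Cxcl12 was -0.65 and was not called (adjusted p = 0.0559). That scaling moved the median of all genes from 0.01 to 0.63.

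Cx3cl1, or fractalkine, tethers monocytes and NK cells that carry CX3CR1 to the endothelial surface. It was read at 19.7, 29.6, 39.6 and 30.6 FPKM in saline 1 to 4. In LPS libraries it ranged from 5.06 to 15.0 FPKM with a median of 12.7. The groups did not overlap, and the log2 fold change was -1.31 ± 0.27 (SE, adjusted p = 0.00208). With the endothelial scaling it was -0.56 with an adjusted p of 0.0469, and so fell short of the fold limit.

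Cxcl16, the transmembrane ligand of CXCR6 and also a scavenger receptor for oxidized lipoprotein, went the other way. It was read at 7.68, 7.90, 13.3 and 7.75 FPKM in saline 1 to 4. After LPS it ranged from 31.7 to 64.9 FPKM with a median of 44.9. All LPS libraries lay above all saline libraries, and the log2 fold change was 2.19 ± 0.22 (SE, adjusted p = 2.29e-05). Its exons share 552 bases with Zmynd15 on the opposite strand, which had up to 940 reads in a library. The pair of transmembrane ligands was thus called in opposite directions.

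Of the 10 ligands, 9 had groups that did not overlap (7 higher, 2 lower), against 39.4% of all genes tested in either direction. Cxcl1, Cxcl5 and Cxcl9 did not reach the filter of 0.5 FPKM in the saline group alone, so they entered the test through their LPS values. Cxcl3 reached it in saline, with a mean of 0.585 FPKM, only through saline 1 at 2.27. The calls were unaltered when any single library was left out, and also without saline 1 and saline 3 together, which were chosen for omission after the data had been seen. In bulk samples, fewer cells of a type and less RNA per cell cannot be told apart.

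**Figure D1:**
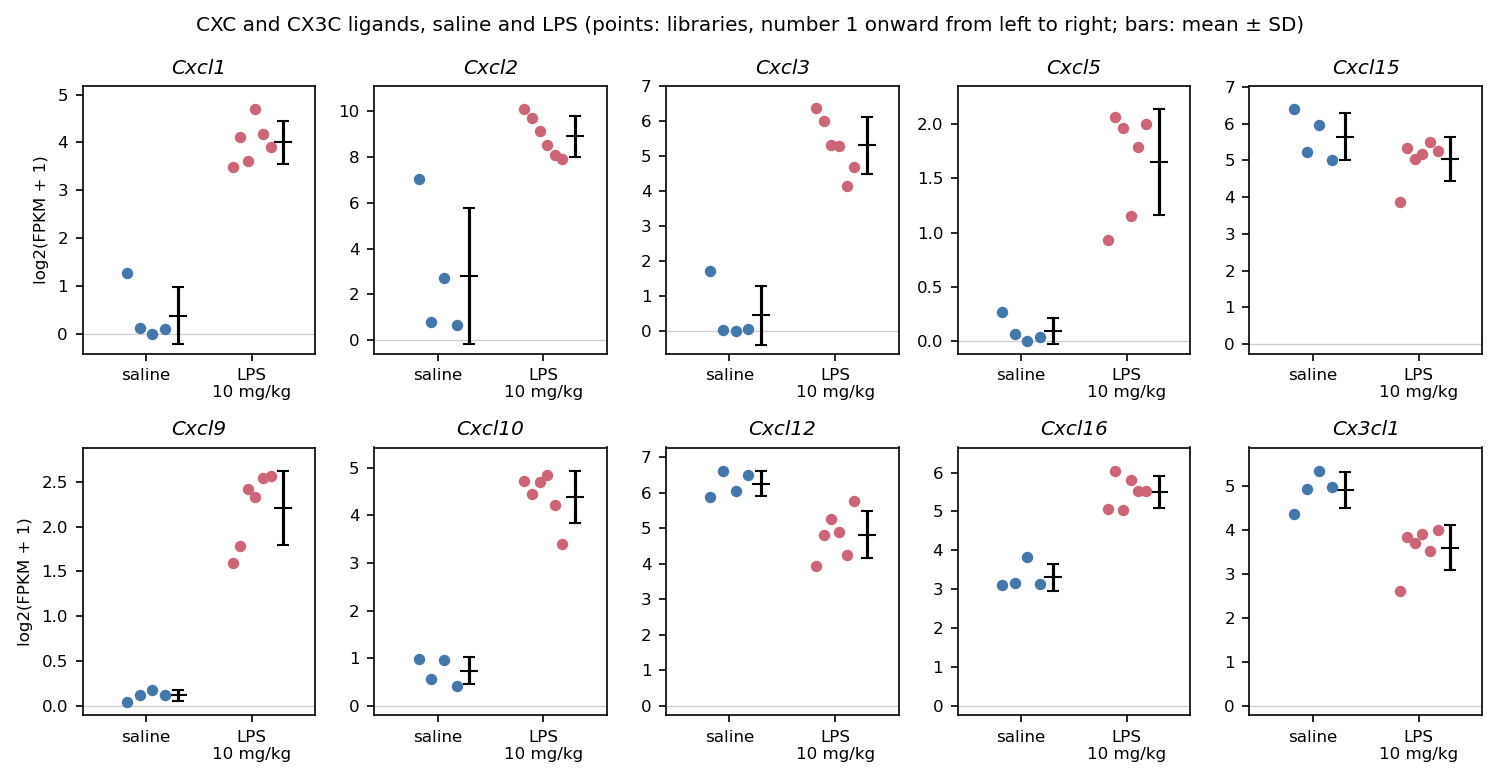
Level of each ligand as log2(FPKM + 1) (vertical axis) in the saline and LPS libraries of the first experiment, with points for libraries and bars for mean ± SD. Saline 1 stands above the other saline libraries for Cxcl1, Cxcl2 and Cxcl3, while Cxcl12 and Cx3cl1 lie lower in all 6 LPS libraries and Cxcl15 overlaps between the groups.

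The make-up of the ligand pool followed these changes. Summed over the 10 ligands, FPKM was 303, 172, 185 and 160 in saline 1 to 4 and 442 to 1256 in the LPS libraries. Cxcl12 made up 56.0%, 34.9% and 55.9% of the sum in saline 2, 3 and 4. In saline 1 its share was 18.9% and that of Cxcl2 was 43.1%. Cxcl2 was the leading ligand in all 6 LPS libraries, with 53.3% to 85.2% of the sum, and Cxcl12 fell to between 1.14% and 12.0%. By group mean, the order in saline was Cxcl12 (76.9 ± 18.9 FPKM, SD, n = 4), Cxcl15 (52.8 ± 23.7), Cxcl2 (34.4 ± 64.2), Cx3cl1 (29.9 ± 8.13) and Cxcl16 (9.15 ± 2.75), with the other 5 ligands under 1 FPKM. Only the steps from Cx3cl1 to Cxcl16 and from Cxcl16 to Cxcl10 separated neighbours in this order whose libraries did not overlap. After LPS the order was Cxcl2 (549 ± 333 FPKM, SD, n = 6), Cxcl16 (45.7 ± 13.0), Cxcl3 (44.1 ± 24.4), Cxcl15 (33.7 ± 10.7), Cxcl12 (29.7 ± 13.9), Cxcl10 (21.1 ± 6.81), Cxcl1 (15.7 ± 5.38), Cx3cl1 (11.6 ± 3.59), Cxcl9 (3.76 ± 1.24) and Cxcl5 (2.27 ± 0.972). There the libraries were apart only between Cxcl2 and Cxcl16 and between Cx3cl1 and Cxcl9.

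**Figure D2:**
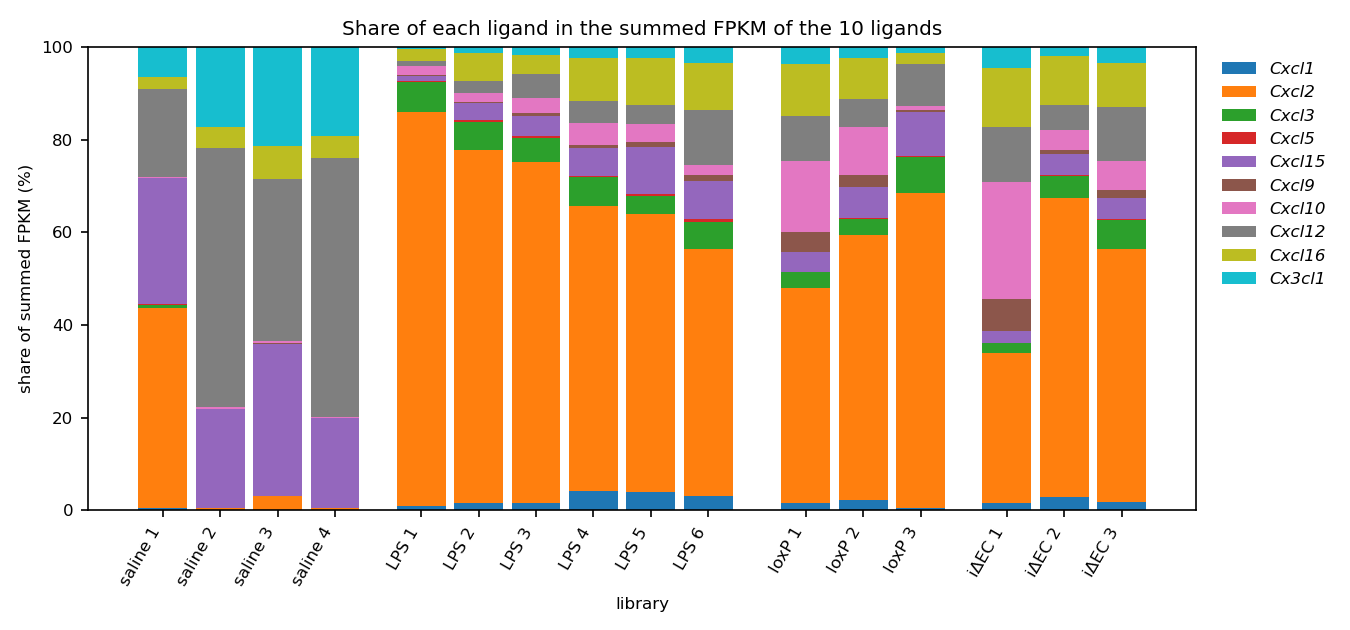
Share of each ligand (vertical axis, percent) in the summed FPKM of the 10 ligands, with a bar for each of the 16 libraries. Cxcl12 leads in saline 2, 3 and 4, while Cxcl2 leads in saline 1 and in every library given LPS.

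The libraries also differed in the cell types whose markers they held. The endothelial list read Pecam1 at 400 ± 81.5 FPKM in saline and 358 ± 76.8 after LPS (SD, n = 4 and 6), and all 10 of its genes were read in each of the 16 libraries. Its summed FPKM averaged 4013 in saline and 2563 after LPS, led by Cldn5, and 4 of 10 genes were called lower. The leukocyte list, led by Coro1a, rose from a mean of 137 to 1118 and had 6 of 6 genes called higher, among them Ptprc, the gene of the CD45 protein used for depletion. The macrophage list, led by Lyz2, rose from 671 to 3131 with 7 of 8 genes called higher, and Marco was at 0 in part of the saline libraries. The neutrophil list, led by S100a9, averaged 460 in saline and 3007 after LPS with 6 of 8 genes called higher, and Ly6g was at 0 in part of the saline libraries. The macrophage and neutrophil sums were both above the endothelial sum in LPS 1 (4096 and 2703 against 1372) and LPS 2 (3508 and 6609 against 3200), 1 of them was above it in LPS 3, 4 and 5, and both were below it in LPS 6 (1893 and 1279 against 3018). Sums over different genes are not shares of cells.

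In saline 1, the library with high Cxcl1, Cxcl2 and Cxcl3, the neutrophil list summed to 1388 FPKM against 70.3, 306 and 76.4 in saline 2, 3 and 4. The endothelial (5678), leukocyte (202), macrophage (1107), epithelial (2679), mural (121) and platelet (21.2) sums were also the highest of the 4 saline libraries there. Not every gene of these lists went that way. Cldn5, which led the endothelial sum, was at 2842 FPKM in saline 1 and at 938 to 1362 in the others. Kdr (64.8 against 131 to 169), Tek, Tie1 and Erg were lowest in saline 1, as were Mrc1 and Marco of the macrophage list. Nfkbia, the inhibitor that NF-kB induces against itself, was at 693 FPKM in saline 1 and at 132 to 147 in the other saline libraries. Tnfaip3 was at 19.8 against 4.34 to 4.99 and Nfkbiz at 23.0 against 3.94 to 4.58. The part of these differences in the ligand values was not tested.

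The platelet list, led by Itgb3, went from a mean of 13.6 to 37.1 with 3 of 4 tested genes called higher, and Gp1bb was at 0 in every library. The epithelial list, led by Sftpc, went from 1745 to 593 with 3 of 9 called lower, namely Sftpc, Scgb1a1 and Scgb3a2, while Sftpa1 had a log2 fold change of 0.30. Scgb3a2 passed the filter only through saline. The lymphocyte list, led by Cd79a, went from 93.6 to 27.4 with 3 of 5 called lower. The mural list, led by Acta2, had 2 of 7 genes called lower (Pdgfrb and Notch3). Its sum was 121 in saline 1, 26.6 to 51.7 in the other saline libraries and 33.2 to 58.8 after LPS, so that only saline 1 lay above the LPS libraries. The fibroblast list, led by Col3a1, had 0 of 6 called and means of 54.1 and 32.0, with Lum at 0 in part of the saline libraries. Of these 6 genes, 4 were lower by the adjusted p alone, without the fold limit, against 23.7% of all genes tested. No erythroid gene was high enough to be tested, and the list, led by Alas2, summed to a mean of 0.286 and 0.434. Most leukocyte, macrophage, neutrophil and platelet markers were thus called in the direction of the 7 ligands that rose, and some endothelial, epithelial, lymphocyte and mural markers in that of the 2 that fell. Their part in these results was not tested, apart from the endothelial scaling above.

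Genes of the wider pathway were read from lists of ligands, receptors, sheddases, inducers, transcription factors and RNA-decay factors. Of the 6 other CXC ligands, 5 were tested and 2 were called higher, namely the B cell attractant Cxcl13 (log2 fold change 2.19) and platelet factor 4, Pf4 (2.35). Cxcl13 averaged 0.0516 FPKM in saline and entered the test through its LPS values. Ppbp, the platelet ligand that lies beside Pf4 in the same run of genes, had a log2 fold change of 0.00, while those of Cxcl14 and Cxcl17 were -0.68 and 0.92 and fell short of the fold limit. Of the 9 receptors and scavengers, 7 were tested and 3 were called higher. Cx3cr1, the receptor of Cx3cl1 on monocytes, averaged 1.06 ± 0.289 FPKM in saline and 11.1 ± 2.43 after LPS (SD, n = 4 and 6), and its log2 fold change was 2.54 (adjusted p = 1.23e-06). Cxcr2, the receptor of the ELR ligands, had a log2 fold change of 2.43, and Ackr1, the venular receptor that binds many chemokines without signalling, one of 1.54. Cxcr4, the receptor of Cxcl12, had a log2 fold change of 0.12 and Ackr3, its scavenger, 0.96, and neither was called. Cxcr3 and Cxcr6, the receptors of Cxcl10 and Cxcl16, were too low to be tested.

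Among 6 genes for sheddases, their regulators and the peptidase Dpp4, which cuts the first residues from several chemokines, 1 was called. Dpp4 was lower after LPS, with a log2 fold change of -1.86. Adam17 and Adam10 had log2 fold changes of 0.69 and 0.45, which passed the adjusted p and not the fold limit, and without that limit 29.5% of all genes were higher and 23.7% lower. By the adjusted p alone 2 of these 6 genes were lower, Dpp4 among them. Rhbdf1 averaged 13.8 FPKM in saline and 9.53 after LPS. Of 8 inducing cytokines, 4 were tested and called higher, with log2 fold changes of 5.11 for Tnf, 4.83 for Il1b, 4.71 for Il1a and 1.31 for Il6. Tnf and Il6 averaged 0.498 and 0.0536 FPKM in saline, so they too passed the filter only through LPS. Ifng, Ifnb1, Il17a and Il17f were too low to be tested, with means of 0.144 FPKM in saline and 0.0649 after LPS for Ifng. Of 10 transcription factors and feedback genes, 4 were called higher, all of the NF-kB pathway. These were Nfkb2 (2.03), Nfkbia (1.40), Nfkbiz (2.10) and Tnfaip3 (2.79). The NF-kB subunit genes Nfkb1 (0.42) and Rela (0.24) were not called, and neither were Stat2 (-0.22), Irf1 (-0.45) and Irf9 (0.60), which carry interferon signals. Of 5 factors that act on short-lived mRNAs, the decay factors Zfp36 (1.34) and Zc3h12a (2.43) were called higher.

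**Figure D3:**
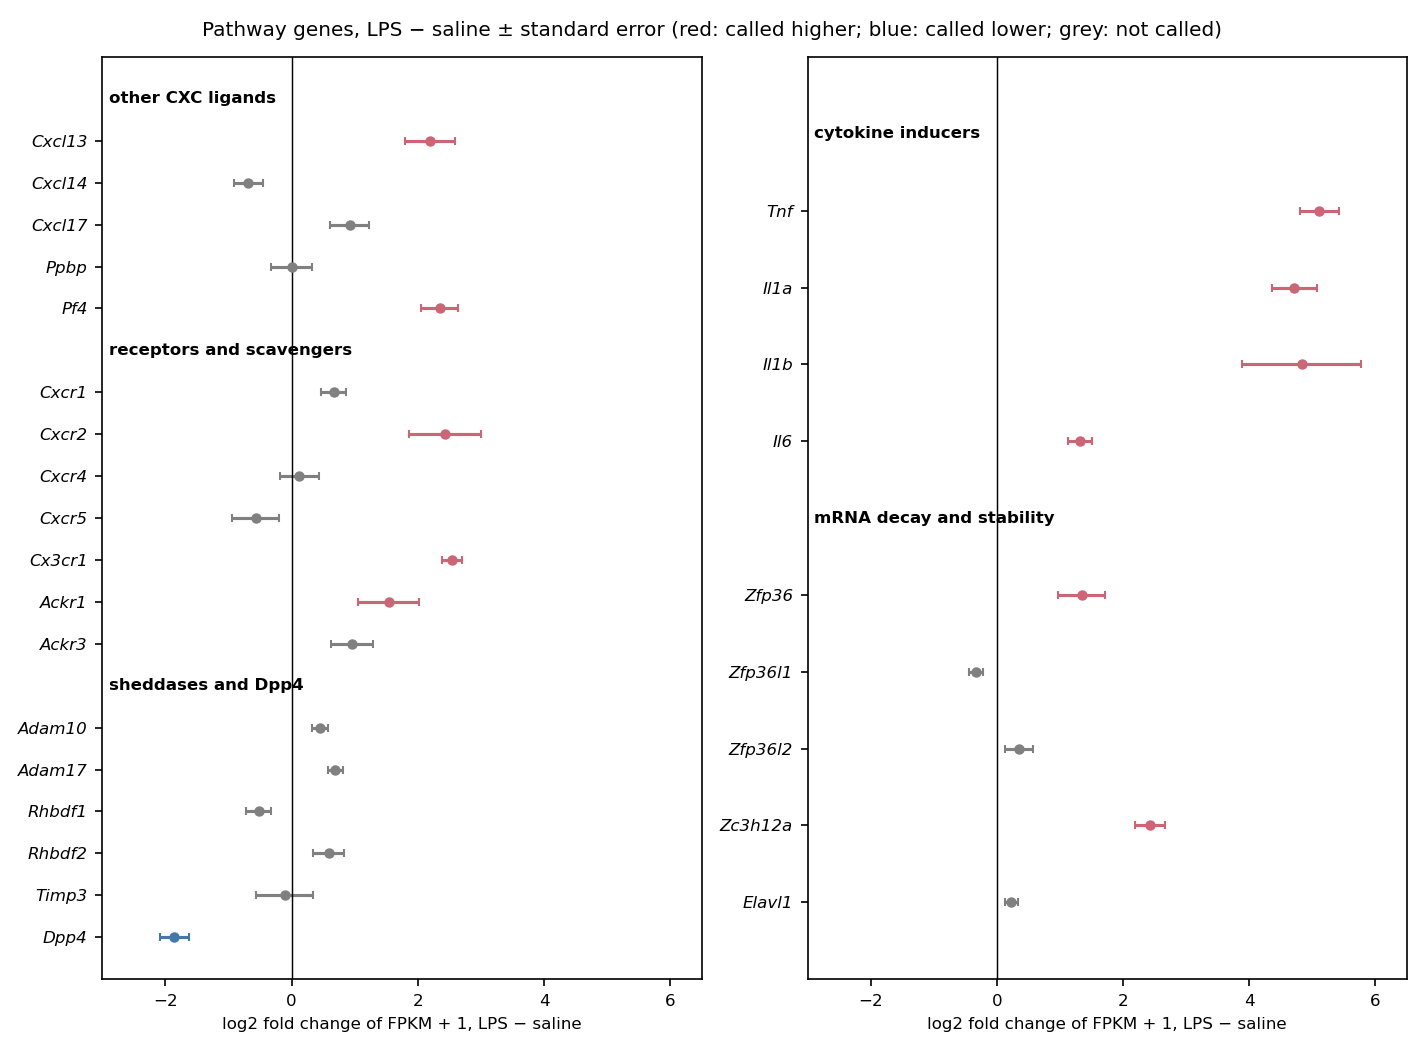
Log2 fold change of FPKM + 1 (horizontal axis, LPS minus saline) with its SE for the tested genes of the pathway lists other than transcription factors and feedback genes. The 4 tested inducing cytokines lie to the right of 0, Tnf furthest at 5.11, and Dpp4 at -1.86 is the gene furthest to the left.

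The neighbours of the ligands on their chromosomes were counted within 50 kb. In the run from Cxcl5 to Cxcl2, 1 of 5 tested neighbours (Pf4) was called higher, and in the run of Cxcl9 and Cxcl10, 1 of 3 (Naaa). Beside Cxcl16 this was 2 of 4 (Arrb2 and Med11), and beside Cx3cl1, 1 of 3 (Ccl17, a ligand of CCR4). Cxcl12 had no tested neighbour, and no neighbour of any ligand was called lower. Among all genes tested, 11.9% were called higher and 6.79% lower, and each run holds too few neighbours to be set against these shares. Cx3cl1 and Ccl17, whose starts lie within 50 kb of each other on chromosome 8, were thus called in opposite directions.

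The genes whose pattern over the 10 libraries of the first experiment was most like that of each ligand were found by the root mean square difference between centred log2(FPKM + 1) profiles. For Cxcl1 these included Rnd1 (0.234) and Ch25h (0.406). For Cxcl2 they were Cd14 (0.567), Acod1 (0.673) and Il1b (0.711), and for Cxcl3 they were Il1f9 (0.355), Basp1 and Ptafr. Cxcl15 was most like Sftpb (0.174), which encodes surfactant protein B, then Mal2 (0.184) and the water channel gene Aqp5 (0.188). Cx3cl1 was most like Grb14 (0.142), Nipal3 (0.143) and Ppp1r16b (0.147), and Cxcl12 was most like Amotl1 (0.261), Fzd6 and Ltbp1. For Cxcl5 the nearest gene was Slc26a4 (0.235), for Cxcl9 Adamts4 (0.266), for Cxcl10 Smpdl3b (0.240) and for Cxcl16 Ankrd37 (0.250). These are descriptions, and the libraries of a group share their treatment.

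In the second experiment the question was whether the ligands differ with endothelial Fgfr1 under 2 mg/kg LPS. Fgfr1 itself was read at 2.90, 2.91 and 2.59 FPKM in loxP/loxP 1 to 3 and at 0.683, 1.41 and 1.15 in iΔEC/iΔEC 1 to 3. The groups did not overlap, in the direction that the labels imply, with a log2 fold change of -0.88 ± 0.16 (SE) and an adjusted p of 0.961. Over all 14944 genes tested, limma called 0, limma-voom called 0, and 663 (4.44%) had an unadjusted p under 0.05. With the replicate number as a block, a pairing that the labels do not state, 0 genes were called and 7.7% had an unadjusted p under 0.05. Of the 10 ligands, 0 were called, 0 had an unadjusted p under 0.05 and 0 had groups that did not overlap, against 10.2% of all genes, and their median log2 fold change was -0.07. With 3 libraries a group, an exact permutation test of a single gene cannot go under 0.1.

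**Figure D4:**
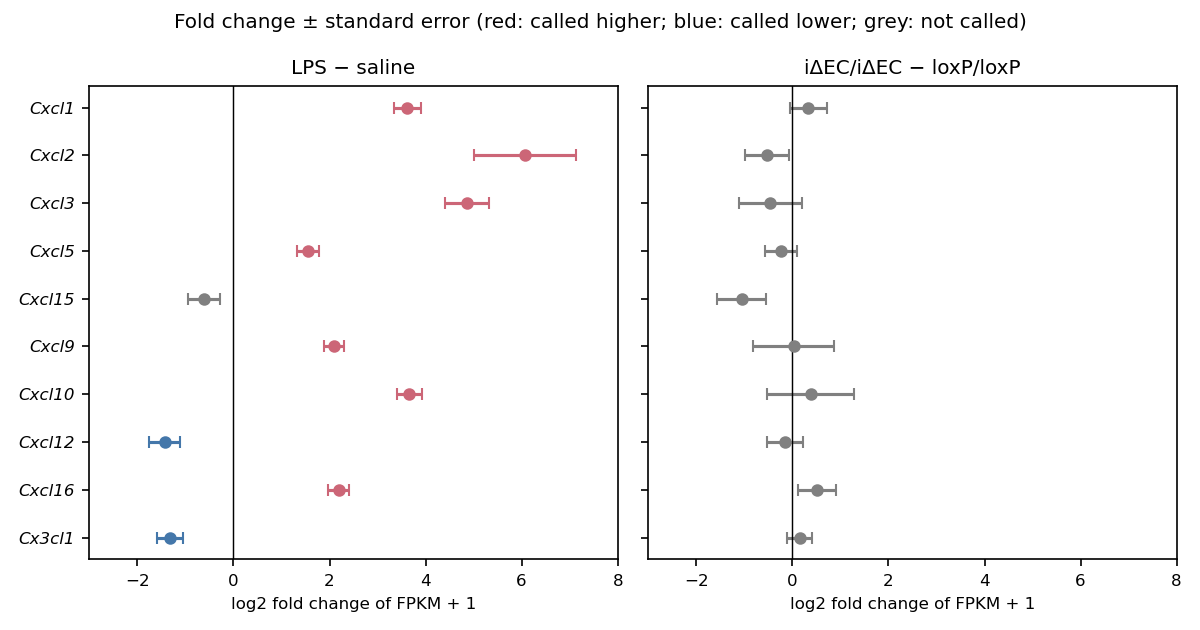
Log2 fold change of FPKM + 1 with its SE (horizontal axis) for the 10 ligands, LPS minus saline on the left and iΔEC/iΔEC minus loxP/loxP on the right. On the left 7 ligands are called higher and 2 lower, and on the right no ligand is called.

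The ELR ligands overlapped between the genotypes. Cxcl2 was at 237, 343 and 581 FPKM in loxP/loxP 1 to 3 and at 140, 352 and 315 in iΔEC/iΔEC 1 to 3, a log2 fold change of -0.53 ± 0.46 (SE, adjusted p = 0.961), which was -0.19 without loxP/loxP 3 and -0.12 without iΔEC/iΔEC 1. Cxcl3 was at 17.8, 19.6 and 65.7 FPKM in loxP/loxP and at 8.70, 26.6 and 36.2 in iΔEC/iΔEC, with -0.46 ± 0.65. Cxcl1 was at 8.53, 12.8 and 4.82 FPKM in loxP/loxP and at 7.22, 16.2 and 9.87 in iΔEC/iΔEC, with 0.33 ± 0.38, which was 0.007 without loxP/loxP 3 and 0.047 without iΔEC/iΔEC 2. Thus loxP/loxP 3 held the highest Cxcl2 and Cxcl3 of the 6 libraries and the lowest Cxcl1. Cxcl5 ranged from 0.442 to 2.01 FPKM over the 6 libraries, with -0.24 ± 0.33.

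Cxcl15 had the largest log2 fold change of the 10 in size with all 6 libraries. It was at 22.2, 40.6 and 81.7 FPKM in loxP/loxP 1 to 3 and at 11.4, 25.5 and 26.2 in iΔEC/iΔEC 1 to 3. The groups overlapped. Within each same-numbered pair the iΔEC/iΔEC library was the lower, with log2 differences of -0.90, -0.65 and -1.61 in pairs 1, 2 and 3. No other ligand went the same way in every pair, and the share of all genes that did was not counted. The log2 fold change of Cxcl15 was -1.05 ± 0.51 (SE) and was not called, either without the block (adjusted p = 0.961) or with it (0.541). It was -0.58 without loxP/loxP 3, where Cxcl9 at -0.74 was larger in size, and -0.68 without iΔEC/iΔEC 1. The epithelial list summed to 891, 1614 and 2874 FPKM in the same loxP/loxP libraries and to 410, 1073 and 826 in the iΔEC/iΔEC libraries, and its part in the Cxcl15 values was not tested.

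The interferon-inducible ligands had the largest SEs of the log2 fold change among the ligands. Cxcl10 was at 78.4, 61.1 and 8.48 FPKM in loxP/loxP 1 to 3 and at 110, 24.1 and 36.1 in iΔEC/iΔEC 1 to 3, with a log2 fold change of 0.38 ± 0.91 (SE, adjusted p = 0.975). Cxcl9 was at 21.6, 15.9 and 3.01 FPKM in loxP/loxP and at 29.7, 4.10 and 9.27 in iΔEC/iΔEC, with 0.02 ± 0.84. In each genotype both genes were highest in the library numbered 1, and the lowest value of all 6 libraries was that of loxP/loxP 3 for both. Irf1, an interferon-induced transcription factor, was at 77.8, 62.9 and 38.8 FPKM in loxP/loxP and 118, 31.6 and 60.4 in iΔEC/iΔEC. Together Cxcl9 and Cxcl10 made up 19.5%, 12.9% and 1.34% of the summed ligand FPKM in loxP/loxP 1 to 3 and 32.1%, 5.17% and 7.86% in iΔEC/iΔEC 1 to 3.

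Cxcl16 was at 57.5, 53.6 and 18.9 FPKM in loxP/loxP 1 to 3 and at 54.9, 58.1 and 54.7 in iΔEC/iΔEC 1 to 3. The other 5 libraries lay between 53.6 and 58.1 FPKM with loxP/loxP 3 below them, and the log2 fold change was 0.51 ± 0.40 (SE, adjusted p = 0.961). Without loxP/loxP 3 it was 0.010. Cx3cl1 was at 18.4, 14.0 and 11.8 FPKM in loxP/loxP and at 19.9, 10.9 and 19.4 in iΔEC/iΔEC, with 0.15 ± 0.26 and with 0.009 to 0.42 when single libraries were left out. Cxcl12 was at 50.4, 36.1 and 77.3 FPKM in loxP/loxP and at 51.8, 28.7 and 68.2 in iΔEC/iΔEC, with -0.15 ± 0.38. Its order across the numbers 1, 2 and 3 was the same in both genotypes. Without loxP/loxP 3 the signs of Cxcl3, Cxcl5, Cxcl9, Cxcl10 and Cxcl12 turned, and 0 ligands were called then too.

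**Figure D5:**
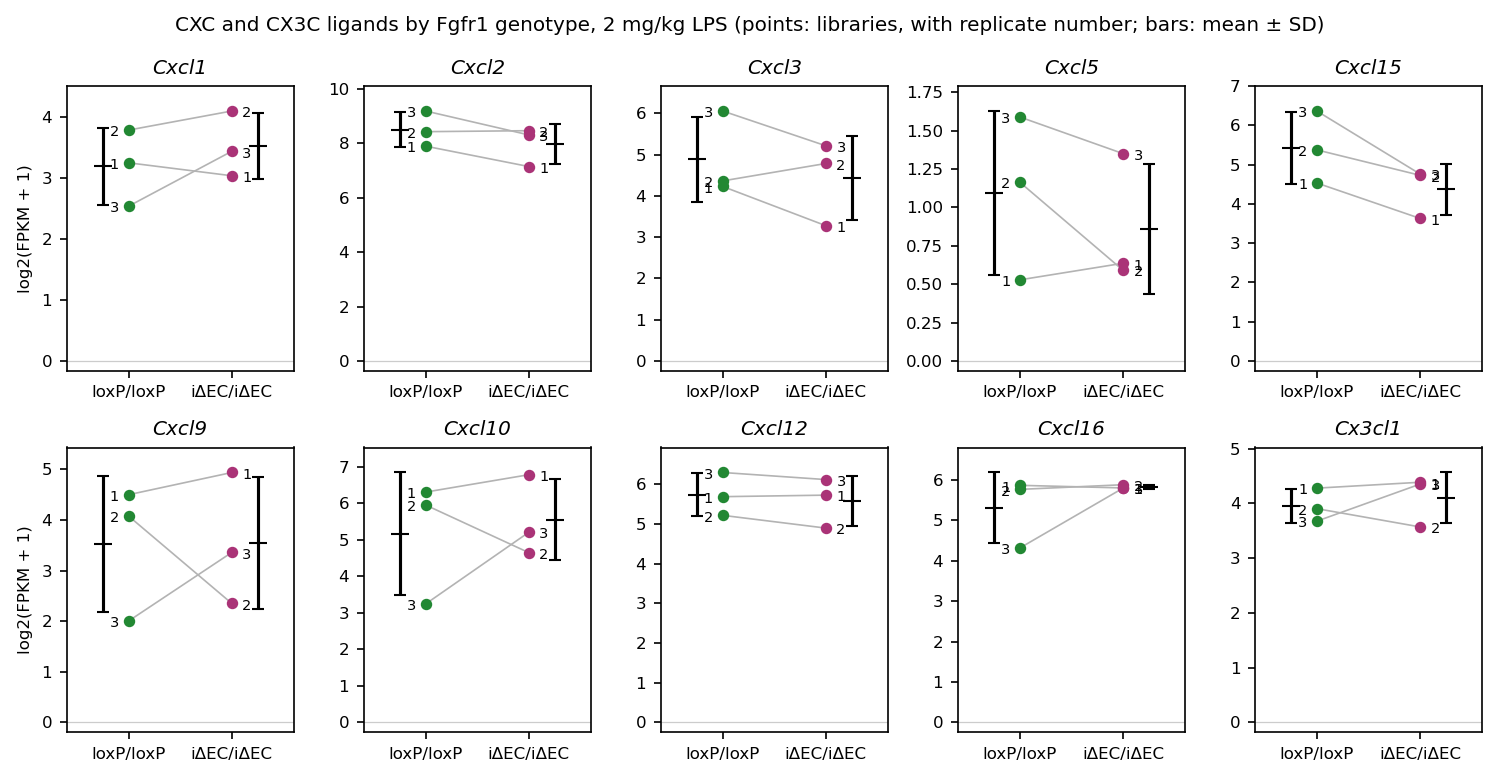
Level of each ligand as log2(FPKM + 1) (vertical axis) in loxP/loxP and iΔEC/iΔEC libraries given 2 mg/kg LPS, with points marked by replicate number, grey lines joining equal numbers and bars for mean ± SD. Every ligand overlaps between the genotypes, and loxP/loxP 3 stands low for Cxcl9, Cxcl10 and Cxcl16.

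Of the wider pathway, 0 genes were called between the genotypes in any of the 6 lists, and 0 in any of the 10 marker lists. The groups did not overlap for 3 of the 6 sheddase-related genes, all higher in iΔEC/iΔEC, namely Rhbdf1 (log2 fold change 0.33), Rhbdf2 (0.30) and Timp3 (0.54). They did not overlap either for Ackr3 (0.54) and Cxcr5 (-0.66) among the receptors, for Rela (0.29) and Nfkbia (0.22) of the NF-kB pathway, or for the cytokine Il17a (-0.61), which was at 0.402 to 1.51 FPKM in loxP/loxP and at 0.151 to 0.315 in iΔEC/iΔEC. Il17a passed the filter only through loxP/loxP. Of all genes tested, 6.1% lay apart and higher and 4.07% apart and lower. Each of these genes had an adjusted p of 0.961. Tnf was at 29.6, 39.1 and 45.9 FPKM in loxP/loxP 1 to 3 and at 20.1, 23.4 and 33.1 in iΔEC/iΔEC 1 to 3. Tnf, Il1a and Il1b were each lower in the iΔEC/iΔEC library of every same-numbered pair, while Il6 was higher there in pairs 2 and 3. The share of all genes lower in every pair was not counted. The neutrophil list summed to 1157, 2535 and 2566 FPKM in loxP/loxP 1 to 3 and to 744, 2422 and 1522 in iΔEC/iΔEC 1 to 3. For the macrophage list the sums were 1160, 1829 and 2767 against 899, 1923 and 1745. Their part in the cytokine values was not tested. With the replicate block 0 genes were called.

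Levels in the 4 groups can be set side by side, although the tables were normalized separately and dose and genotype differ. Cxcl1, Cxcl2, Cxcl3, Cxcl5, Cxcl9, Cxcl10 and Cxcl16 had their lowest mean in saline, and for each of them no saline library reached the next group. For Cxcl9 the means were 0.0823 ± 0.0432 FPKM in saline (SD, n = 4), 3.76 ± 1.24 after 10 mg/kg LPS (n = 6), 13.5 ± 9.54 in loxP/loxP (n = 3) and 14.4 ± 13.5 in iΔEC/iΔEC (n = 3). For Cxcl10 they were 0.685 ± 0.323, 21.1 ± 6.81, 49.3 ± 36.4 and 56.6 ± 46.2 in the same order, and the groups given LPS overlapped for both. Cx3cl1 and Cxcl12 had their highest mean in saline, with means of 14.7 ± 3.37 and 16.7 ± 5.07 FPKM for Cx3cl1 and 54.6 ± 20.9 and 49.6 ± 19.9 for Cxcl12 in loxP/loxP and iΔEC/iΔEC, and neighbouring groups overlapped throughout for both. Cxcl15 also had its highest mean in saline (52.8 FPKM), followed by loxP/loxP (48.2), 10 mg/kg LPS (33.7) and iΔEC/iΔEC (21.0), and its neighbouring groups overlapped.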

How the data were processed

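RNA-seq of 16 libraries was read from a pair of tables, in which the authors deposited FPKM per gene after alignment to GRCm38 with HISAT2 2.0.5 and counting with featureCounts 1.5.0-p3, per the labels and the study's methods. The annotation release, strandedness and trimming are not given in the sources used here. FPKM times gene length in kb, divided by each library's FPKM for 1 read per kb, gave whole read numbers (within 0.1 read) for 100.0% of values. The library sizes in use were those of the median-of-ratios method. Genes that averaged 0.5 FPKM or more in a comparison were tested on log2(FPKM + 1), pseudocount 1, with R 4.3.3 and limma 3.58.1 (eBayes with trend after lmFit), Benjamini-Hochberg adjusted over all genes. The fits were also run on simulated independent libraries with the same spread setting for every gene. The outcome is not given here, and such a run does not measure error rates in these data. Fold changes on this scale understate changes of low genes. Figures were drawn with matplotlib 3.10.9, and tables made with pandas 2.3.3 and numpy 2.4.6 in Python 3.11.15. Reads on genes per library (13478726 to 19043015) limit low values, for counting error only, and no molecular identifiers were used.

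Replicate numbers come from the titles. In the second experiment the deviations of same-numbered libraries correlated at 0.248, 0.177 and 0.187 and those of other pairs at -0.14 to -0.041. Deviations from a group mean cancel out over the group, so the negative values follow from the positive ones and are no separate evidence. The numbers were used to pair the libraries for description. The labels do not state such a pairing, and these values cannot settle it. Groups were compared within each experiment, without a block. Alternatives were other pseudocounts, filters and scalings, limma-voom on read numbers, the block and each library left out. The genes named are the 10 ligands, genes of the pathway and marker lists, genes within 50 kb and the most alike genes. The members and lists were chosen with earlier results of these data known. The values of some genes under this rule are not reported here.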

Additional observations from a re-analysis of the deposited data

Results flagged for a closer look

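Each ligand and each marker list was examined, in saline and in LPS, for a library standing far from the others of its group on the log2(FPKM + 1) scale, and 6 of these 40 sets of values held such a library, where chance gives about 2. Cxcl1 was at 1.41 FPKM in saline 1 and at 0 to 0.0964 in the other saline libraries, and Cxcl3 was at 2.27 in saline 1 and at 0 to 0.0436 in the others. On linear FPKM, a scale tried after seeing the data, 4 sets held such a library, 3 of them among the 6, and the other was Cxcl2 in saline 1 (131 against 0.590 to 5.58). Cxcl16 was at 13.3 FPKM in saline 3 and at 7.68 to 7.90 in the others. The lymphocyte markers summed to 24.0 FPKM in saline 3 and to 104 to 134 in the others. Cxcl15 was at 13.6 FPKM in LPS 1 and at 32.1 to 44.5 in the other LPS libraries, and Cx3cl1 was at 5.06 in LPS 1 and at 10.4 to 15.0 in the others. In LPS 1 the endothelial markers summed to 1372 FPKM, against 2078 to 3245 in the other LPS libraries, and the epithelial markers to 232 against 449 to 847, and the part of these in the values was not tested.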

How the results depend on the processing

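Under all alternatives the 7 ligands that rose after LPS kept their direction, and the same number was called except with a filter of 5 FPKM, which left 8 ligands tested and 5 called higher. Of all genes, 1768 were higher and 1011 lower after LPS, which became 4770 and 176 with scaling on the endothelial list (0 ligands lower), 1378 and 1453 on total reads, 1366 and 1326 under quantile normalization, and 4399 and 3529 with no fold limit. Genes lower numbered 1840 with a pseudocount of 0.1, 2008 by limma-voom and 518 with the filter of 5 FPKM. The median of all genes was -0.15 on total reads. Leaving out single libraries gave 1641 to 1947 genes higher and 910 to 1107 lower, with 7 and 2 ligands. In the first experiment same-numbered libraries correlated at 0.097, -0.162, -0.209 and -0.117, which gave no sign of a pairing. The replicate block there gave 1925 genes higher and 1063 lower and changed no ligand's call. Cxcl15 was 0.17 after LPS with endothelial scaling. Between genotypes, 0 genes were called under every alternative. The replicate block changed no call there. Signs turned for Cxcl9 on total reads (-0.038) and with endothelial scaling (-0.22), and for Cx3cl1 with the latter (-0.091). Leaving out single libraries gave -0.85 to 0.13 for Cxcl3, -0.52 to 0.013 for Cxcl5, -0.74 to 0.62 for Cxcl9, -0.58 to 0.95 for Cxcl10 and -0.42 to 0.19 for Cxcl12, and the cause was not tested. Depth limits Cxcl1, Cxcl3, Cxcl5 and Cxcl9 in saline, where single libraries had as few as 0 or 1 reads.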
